A study of Mus musculus with 14 samples.

Results

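The mitochondrial ribosomal proteins are the nuclear-encoded proteins of the ribosome inside mitochondria, and their genes were taken as the rows of the count table whose symbol starts with Mrpl (large subunit) or Mrps (small subunit) followed by a number. Symbols ending in -ps and genes with fewer than 100 counts summed over the libraries were to be left out. The rule gave 76 of the 23337 genes in the table, 47 for the large subunit and 29 for the small subunit, and all 76 passed the filter on low counts, which kept 11170 genes. Their summed counts ran from 1526 to 45868 reads per gene, and the lowest count of any of them in a single library was 69 reads, so none was near the limit of detection.

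Poly(A) RNA had been sequenced from mouse heart cardiomyocytes, which were isolated by Langendorff perfusion at 4 weeks of age and purified by fluorescence-activated sorting. The 7 KO samples came from mice given AAV-Ryr2gRNA, an adeno-associated virus named for a guide RNA against Ryr2 (the calcium release channel of the sarcoplasmic reticulum), and the 7 Ctrl samples from mice given AAV-Cre. Both groups carried the Rosa-Cas9GFP allele and were injected on postnatal day 1. No label says if AAV-Ryr2gRNA carried Cre too, so effects of guide and vector cannot be told apart. Nor do the labels call the 7 samples of a group separate animals; p-values then rest on a spread between samples that may be technical in part.

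Library totals ran from 5689335 to 11064715 counts in KO and from 6313220 to 13165662 counts in Ctrl. Ryr2 itself averaged 309 ± 48.1 CPM in KO and 675 ± 71.4 CPM in Ctrl (SD, n = 7 each; CPM is the read count normalised to library size), or 45.8% of the Ctrl level, and the ranges of the groups did not overlap (exact permutation p = 0.000583, two-sided, the smallest that 3432 assignments can give). The labels' descriptions number the libraries, and those with index 7 to 10 (KO4, KO5, Ctrl4 and Ctrl5) stood apart from the other 10 on the second principal component; the labels name no batch. Macrophage markers summed to 62.4 to 451 CPM in KO and 24.8 to 120 CPM in Ctrl. All 12 had a higher mean in KO and none was at 0 in every library. KO4 and KO5 had the highest KO sums, 451 and 296 CPM, and Ctrl4 and Ctrl5 the highest Ctrl sums, 116 and 120 CPM. Markers of pericytes and smooth muscle summed to 1101 to 1939 CPM in KO and 589 to 977 CPM in Ctrl, those of fibroblasts to 151 to 1156 CPM in KO and 176 to 567.8 CPM in Ctrl, those of endothelium to 260.0 to 893 CPM in KO and 326 to 861 CPM in Ctrl, and those of cardiomyocytes to 75050 to 102426 CPM in KO and 92971 to 108589 CPM in Ctrl. Of the erythroid markers, Hba-a1, Hba-a2 and Hbb-b1 were at 0 in every library, and the sum was 0.862 to 72.9 CPM in KO and 0.863 to 16.1 CPM in Ctrl. Mean CPM was higher in KO for 1 of 8 cardiomyocyte, 7 of 7 fibroblast and 5 of 7 pericyte and smooth muscle markers. It was higher for 0 of 7 endothelial and 2 of 5 erythroid markers. At an adjusted p under 0.05 (edgeR), 5 of the 8 cardiomyocyte markers fell and 0 rose. Their median log2 fold change (KO minus Ctrl) was −0.30, and over all genes tested 13.7% fell and 14.5% rose. Of the other markers tested, 3 of 10 for macrophages and 3 of 7 for pericytes and smooth muscle rose, and 0 of either fell. For fibroblasts 0 of 6, for endothelium 0 of 7 and for erythroid cells 0 of 1 passed in either direction. The part of these markers in the results below was not tested. In bulk RNA, fewer cells of a type and less RNA per cell cannot be told apart.

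The mitochondrial ribosome translates the few messenger RNAs made from mitochondrial DNA, all of which code for membrane-embedded subunits of the respiratory chain and of ATP synthase. Its small subunit binds and decodes the messenger RNA, and its large subunit joins the amino acids. The ribosomal RNAs come from mitochondrial DNA, but every protein of the particle is encoded in the nucleus, made on cytosolic ribosomes and imported, so both genomes and both translation systems have to supply it. Many of these proteins have a bacterial counterpart (Mrps9, Mrps2, Mrps7, Mrpl1, Mrpl3, Mrpl12, Mrpl33), and others are specific to mitochondria (Mrps35, Mrps31, Mrpl37, Mrpl42, Mrpl44, Mrpl54). Cardiomyocytes are among the cells richest in mitochondria, and in humans inherited defects of MRPL3, MRPL44 and MRPS22 have been described with cardiomyopathy.

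Mitochondrial ribosomal protein genes were lower in KO than in Ctrl by a small and widely shared amount. At an adjusted p under 0.05 (edgeR's quasi-likelihood test, Benjamini-Hochberg adjustment over the 11170 genes), 43 of the 76 fell, 0 rose and 33 did not pass, while 13.7% of all genes tested fell and 14.5% rose. The count at an unadjusted p under 0.05 was 60 lower and 0 higher, against 2068 lower and 2237 higher of all 11170 genes. DESeq2 also called 0 of the 76 higher. The median log2 fold change of the 76 genes (KO minus Ctrl) was −0.27, with quartiles of −0.37 and −0.20, and the median of all genes tested was 0.01. Single genes lay between −0.58 and 0.23, and 69 of the 76 were below 0, against 47.8% of all genes tested. The ranges of the 7 KO and the 7 Ctrl libraries did not overlap, with KO lower, for 13 of the 76 genes, against 4.71% of all genes tested, and 0 of the 76 showed the opposite. In the authors' deposited table, 44 of the 76 genes were lower and 0 higher at an adjusted p under 0.05, and 43 were lower in both analyses.

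**Figure D1:**
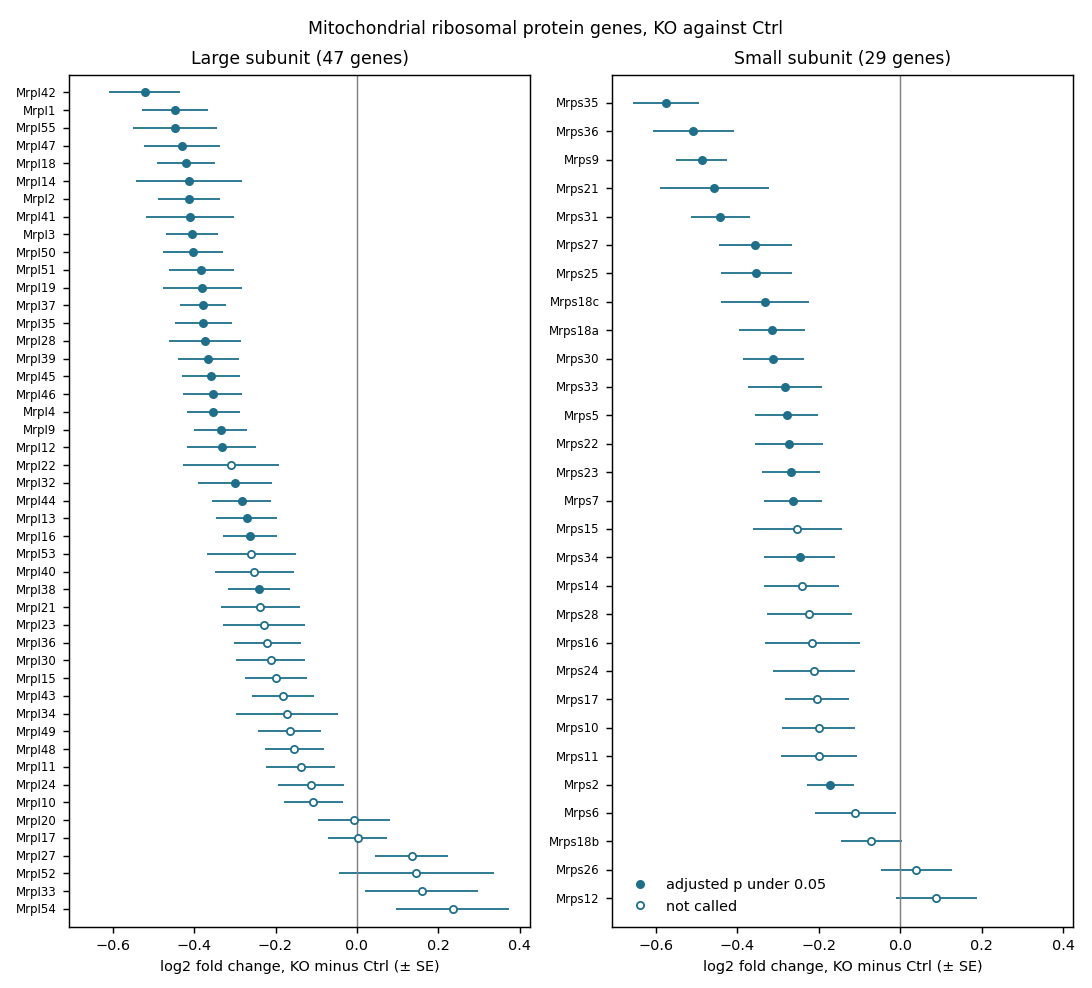
Log2 fold change (KO minus Ctrl, x axis) of each mitochondrial ribosomal protein gene, ordered by size, with the large subunit (47 genes) on the left and the small subunit (29 genes) on the right; bars are the standard error of the fit and filled points passed an adjusted p under 0.05. The filled points, 26 for the large subunit and 17 for the small subunit, all lie left of 0, and the genes furthest right, Mrpl54 at 0.23 and Mrpl33 at 0.16, did not pass.

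The promoters of these genes are shown because they are a classical place for nuclear respiratory factor 1 (NRF1) and for ETS factors such as GABP (nuclear respiratory factor 2), which are known to drive nuclear genes for mitochondrial proteins. For each motif one gene that fell and one that did not pass are given, as the 120 bases before the annotated start, 5′ to 3′ on the strand of the gene, from RefSeq on GRCm38.p6, with matches on either strand in capitals. The NRF1 letters are nearly palindromic, so matches on both strands can overlap, as in Mrpl9, and the printed windows held no other of the motifs searched. Mrpl9 and Mrpl17 hold the NRF1 letters GCGCANGCG, and Mrpl3 and Mrpl52 hold the ETS letters CCGGAAG or their reverse complement. The windows are chr3:94443216-94443335 (plus strand) for Mrpl9, chr7:105811088-105811207 (minus strand) for Mrpl17, chr9:105053148-105053267 (plus strand) for Mrpl3 and chr14:54426789-54426908 (plus strand) for Mrpl52.
Mrpl9: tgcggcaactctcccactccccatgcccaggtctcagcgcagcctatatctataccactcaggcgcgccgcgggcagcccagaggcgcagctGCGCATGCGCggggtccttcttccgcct
Mrpl17: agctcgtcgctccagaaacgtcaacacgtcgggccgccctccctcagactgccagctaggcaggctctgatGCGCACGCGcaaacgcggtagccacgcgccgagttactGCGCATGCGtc
Mrpl3: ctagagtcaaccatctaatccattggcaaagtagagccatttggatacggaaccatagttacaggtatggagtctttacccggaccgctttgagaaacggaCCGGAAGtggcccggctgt
Mrpl52: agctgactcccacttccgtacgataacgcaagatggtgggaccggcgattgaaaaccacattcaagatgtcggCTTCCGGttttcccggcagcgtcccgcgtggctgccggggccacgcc

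A promoter of 250 bases before to 50 bases after the start was at hand for 67 of the 76 genes, all but Mrps35, Mrps34, Mrps28, Mrpl4, Mrpl13, Mrpl15, Mrpl19, Mrpl38 and Mrpl54. The NRF1 letters were in 15 of the 67 (22.4%), against 9.70% of the 15725 genes of the count table with such a window. These 15725 include genes that did not pass the filter on low counts, while all 67 passed it. The share of each motif among genes that passed was not computed. The ETS letters were in 24 of the 67 (35.8%), against 12.7% of all, and the YY1 letters ATGGCGG, which hold a start codon, were in 13 (19.4%), against 6.04% of all. A match describes letters and not a bound site. Among the genes with the NRF1 letters 9 of 15 fell (median −0.31), and among those without 28 of 52 (median −0.26). For ETS, 10 of 24 genes with the letters fell (median −0.25) and 27 of 43 without (median −0.30), and for YY1, 9 of 13 with (median −0.31) and 28 of 54 without (median −0.26). Mrpl9, which fell by 0.33 on the log2 scale (adjusted p = 0.00087), and Mrpl17, at 0.00 (adjusted p = 0.99), both carried the NRF1 letters.

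In the small subunit, 17 of the 29 genes fell (58.6%, against 13.7% of all genes tested), 0 rose and 12 did not pass. The median was −0.26. Mrps35, a mitochondria-specific protein of the small subunit, had the largest fall of all 76 genes. It ran from 93.9 to 125 CPM in KO with a median of 104 CPM, and from 144 to 194 CPM in Ctrl with a median of 161 CPM. The groups did not overlap, and it fell by 0.58 on the log2 scale (SE 0.0801, adjusted p = 4.9e-05, edgeR). The highest Ctrl value was that of Ctrl7, which lay well above the next library.

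Mrps9, whose bacterial counterpart touches the transfer RNA held by the small subunit, had the smallest adjusted p of the 76 genes. Its values ran from 56.7 to 72.1 CPM in KO (median 64.3 CPM) and from 84.4 to 96.3 CPM in Ctrl (median 89.2 CPM). The groups were well apart, with a log2 fold change of −0.49 ± 0.0621 (adjusted p = 2.1e-05, edgeR). Mrps31, a mitochondria-specific protein, ran from 48.4 to 63.2 CPM in KO (median 53.5 CPM) and from 63.6 to 86.1 CPM in Ctrl (median 74.0 CPM). The highest KO library lay just under the lowest Ctrl library, and it fell by 0.44 ± 0.0723 on the log2 scale (adjusted p = 2.2e-04, edgeR). Mrps27 was the other small-subunit gene whose groups did not overlap, at −0.36 (adjusted p = 0.0066).

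Mrps21, the counterpart of a small bacterial protein of the same subunit, ran from 31.2 to 53.2 CPM in KO (median 37.3 CPM) and from 42.2 to 65.6 CPM in Ctrl (median 59.8 CPM). Its groups overlapped, and it fell by 0.46 on the log2 scale (adjusted p = 0.017, edgeR). At the other end of the called genes, Mrps2 averaged 51.7 ± 2.52 CPM in KO and 58.2 ± 4.38 CPM in Ctrl (SD, n = 7 each), a log2 fold change of −0.17 (adjusted p = 0.038), and Mrps7, Mrps22, Mrps23 and Mrps34 fell by 0.25 to 0.27 (adjusted p of 0.0094 to 0.045). The call of Mrps2 was lost without KO1, KO3, KO5, KO6, Ctrl1, Ctrl5, Ctrl6 or Ctrl7 (adjusted p of 0.056 to 0.078), and that of Mrps34 without KO1, KO4, KO5, KO6, KO7, Ctrl1, Ctrl3, Ctrl6 or Ctrl7 (0.054 to 0.10). Mrps33, at −0.28, lost its call without KO4, KO6, Ctrl1, Ctrl3 or Ctrl7 (adjusted p of 0.052 to 0.062). Mrps12, the counterpart of a bacterial protein of the decoding centre, and Mrps26 were the small-subunit genes above 0, at 0.09 and 0.04, and neither passed.

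Symbols do not always give the subunit. Structures of the mammalian particle place the products of Mrps30 and Mrps18a in the large subunit, and the Mrps36 product belongs to the 2-oxoglutarate dehydrogenase complex of the citric acid cycle. Mrps36 averaged 17.2 ± 2.42 CPM in KO and 24.6 ± 2.68 CPM in Ctrl, and fell by 0.51 on the log2 scale (adjusted p = 0.001). Mrps36, Mrpl23 and Mrpl48 have annotated pseudogenes, so their counts are uncertain. Mrps30 averaged 60.9 ± 6.06 CPM in KO and 75.6 ± 7.56 CPM in Ctrl, and fell by 0.31 (adjusted p = 0.0053).

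Mrps18a, Mrps18b and Mrps18c are 3 relatives of one bacterial protein. Mrps18a averaged 72.7 ± 7.18 CPM in KO and 90.5 ± 10.1 CPM in Ctrl, with a log2 fold change of −0.31 (adjusted p = 0.007). Mrps18c averaged 36.5 ± 7.20 CPM in KO and 46.1 ± 4.78 CPM in Ctrl, at −0.33 (adjusted p = 0.03), and its call was lost without KO1, KO2, KO4, KO5, KO6, Ctrl1 or Ctrl7 (0.053 to 0.071). Mrps18b averaged 30.9 ± 2.84 CPM in KO and 32.5 ± 2.80 CPM in Ctrl, at −0.07 ± 0.0743 (SE), and did not pass (adjusted p = 0.53). The difference between the relatives was not tested. With subunits assigned by structure and Mrps36 left out, 28 of 49 large-subunit genes fell (median −0.30) and 14 of 26 small-subunit genes (median −0.25).

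In the large subunit, 26 of the 47 genes fell (55.3%, against 13.7% of all genes tested), 0 rose and 21 did not pass. The median was −0.28. Mrpl42, a mitochondria-specific protein, had the highest level per length of all 76 genes, 533 CPM per kilobase of exon in KO and 766 in Ctrl, and also the largest fall in this subunit. It ran from 273 to 420.2 CPM in KO (median 354 CPM) and from 425 to 581 CPM in Ctrl (median 506 CPM). The groups met without overlapping, and Mrpl42 fell by 0.52 ± 0.0877 on the log2 scale (adjusted p = 2.8e-04, edgeR).

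Mrpl1, whose bacterial counterpart forms the mobile stalk where used transfer RNA leaves the ribosome, ran from 56.5 to 70.4 CPM in KO (median 63.5 CPM) and from 74.4 to 109 CPM in Ctrl (median 82.1 CPM). The groups did not overlap, and it fell by 0.45 on the log2 scale (SE 0.0808, adjusted p = 5.1e-04). Mrpl3, part of the conserved core near the site of peptide bond formation, ran from 98.0 to 123 CPM in KO (median 111 CPM) and from 129 to 162 CPM in Ctrl (median 142 CPM). Again every KO library was below every Ctrl library, and the log2 fold change was −0.41 ± 0.0637 (adjusted p = 1.5e-04).

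Mrpl37, a mitochondria-specific protein of the large subunit, ran from 125 to 156 CPM in KO (median 144 CPM) and from 171 to 202 CPM in Ctrl (median 189 CPM). The gap between the groups was wider than the spread within either, expressed as SD (10.8 CPM in both), and the log2 fold change was −0.38 ± 0.0575 (adjusted p = 1.1e-04). Mrpl2, Mrpl9, Mrpl35, Mrpl45 and Mrpl50 were the other large-subunit genes without overlap between the groups, at −0.41, −0.33, −0.38, −0.36 and −0.40 on the log2 scale. Mrpl55, Mrpl47 and Mrpl18 fell by 0.45, 0.43 and 0.42 (adjusted p of 0.0038, 0.0023 and 3.1e-04), with overlapping groups.

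**Figure D2:**
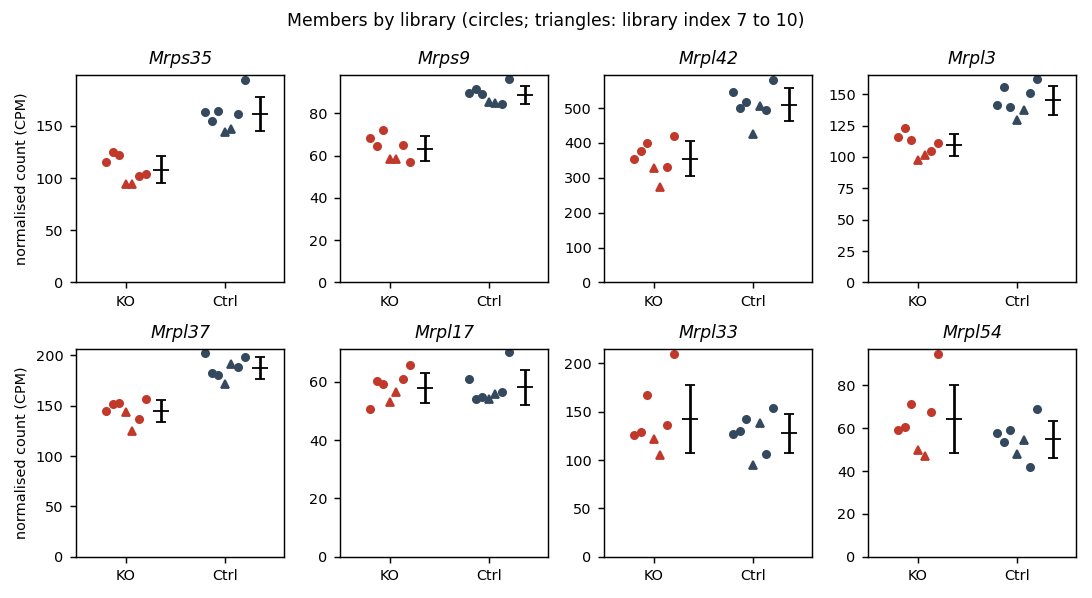
Normalised count (CPM, y axis from 0) of 8 mitochondrial ribosomal protein genes in each library, KO left and Ctrl right in each panel, with the mean and SD of the 7 libraries; triangles are the libraries with index 7 to 10. For Mrps35, Mrps9, Mrpl42, Mrpl3 and Mrpl37 every KO point is below every Ctrl point, while for Mrpl17, Mrpl33 and Mrpl54 the groups overlap.

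Mrpl12, the counterpart of the bacterial stalk protein that recruits translation factors and also reported to bind the mitochondrial RNA polymerase, was next to Mrpl42 in Ctrl level per length, with 262 CPM per kilobase in KO and 329 in Ctrl. It averaged 248 ± 33.5 CPM in KO and 313 ± 30.5 CPM in Ctrl. The groups overlapped, and it fell by 0.33 on the log2 scale (adjusted p = 0.0071). Mrpl44, which has a fold related to a ribonuclease, averaged 65.3 ± 5.37 CPM in KO and 79.5 ± 7.72 CPM in Ctrl, at −0.28 (adjusted p = 0.0069). The smallest falls that passed in this subunit were those of Mrpl32, Mrpl44, Mrpl13, Mrpl16 and Mrpl38, between −0.30 and −0.24 (adjusted p of 0.0069 to 0.026). The call of Mrpl38 was lost without KO4, KO5, Ctrl1 or Ctrl7 (adjusted p of 0.055 to 0.067), and that of Mrpl14, at −0.41, without KO2, KO4, KO5, KO6, Ctrl1 or Ctrl7 (0.051 to 0.061).

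Some large-subunit genes stood at or above 0, and none of them passed. Mrpl33, the gene next to Mrpl12 in Ctrl level per length with 305 CPM per kilobase in KO and 274 in Ctrl, ran from 106 to 209 CPM in KO (median 128.6 CPM) and from 95.2 to 154 CPM in Ctrl (median 129.6 CPM). The groups overlapped, with KO3 and KO7 (168 and 209 CPM) above every Ctrl library and Ctrl4 below every KO library. The log2 fold change of 0.16 ± 0.138 did not pass (adjusted p = 0.44, edgeR), and it was 0.04 without KO7. Mrpl54, a mitochondria-specific protein, ran from 47.1 to 94.5 CPM in KO (median 60.7 CPM) and from 41.9 to 69.2 CPM in Ctrl (median 54.5 CPM), at 0.23 ± 0.139 (adjusted p = 0.23). Its highest value was in KO7. Mrpl17 averaged 58.0 ± 5.14 CPM in KO and 58.0 ± 5.90 CPM in Ctrl, and was lowest in Ctrl level per length, at 8.64 CPM per kilobase in both groups. Mrps25 (7.51 CPM per kilobase in KO and 9.60 in Ctrl) and Mrpl19 (8.03 in KO and 10.5 in Ctrl) were next to it and fell by 0.35 and 0.38 on the log2 scale (adjusted p of 0.0059 and 0.0077). Mrpl52 and Mrpl27 stood at 0.15 and 0.13 and did not pass (adjusted p of 0.62 and 0.30).

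The levels of the 2 subunits were set against each other in each library. The mean log2 CPM of the 47 large-subunit genes was 6.10 ± 0.160 in KO and 6.36 ± 0.118 in Ctrl, and that of the 29 small-subunit genes was 5.71 ± 0.157 in KO and 5.98 ± 0.118 in Ctrl (SD, n = 7 each), differences of −0.26 and −0.27. The large-minus-small difference within a library averaged 0.385 ± 0.00985 in KO and 0.373 ± 0.0253 in Ctrl. Over the 14 libraries it kept within a range of 0.0669 on the log2 scale, against a range of 0.67 for the mean of all 76 genes. KO minus Ctrl, the large-minus-small difference was 0.012, and −0.0026 with subunits assigned by structure. The median log2 fold changes, −0.28 for the large and −0.26 for the small subunit, differ the other way from the 0.012. The sign thus depends on the measure. These scores carry no test.

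**Figure D3:**
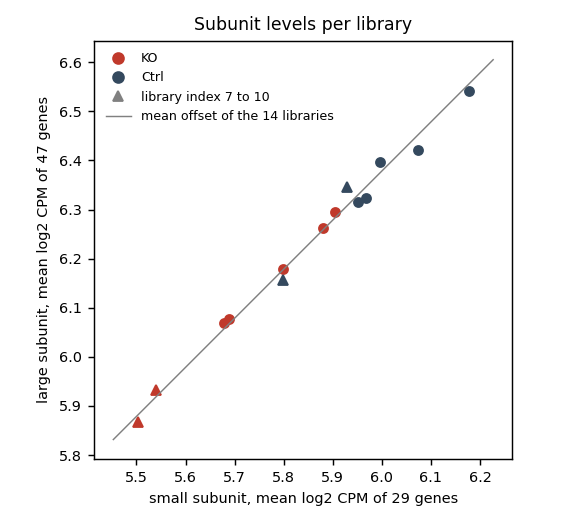
Mean log2 CPM of the 47 large-subunit genes (y axis) against that of the 29 small-subunit genes (x axis), 1 point per library, KO in red and Ctrl in blue, triangles for index 7 to 10; the line is the mean offset of the 14 libraries. The points follow the line over the whole range, and KO and Ctrl libraries lie on the same line.

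The mean of the 76 genes varied between libraries of the same group. Set against the Ctrl mean, it was −0.29, −0.18, −0.07, −0.43, −0.49, −0.29 and −0.10 on the log2 scale in KO1 to KO7, and 0.07, −0.04, 0.03, −0.20, −0.03, −0.03 and 0.19 in Ctrl1 to Ctrl7. The groups thus overlapped, since KO2, KO3 and KO7 lay above Ctrl4. KO4 had all 76 genes below their Ctrl median and KO1 and KO5 had 74 each, while KO3 had 53 and KO7 had 54. Among Ctrl libraries Ctrl4 had 73 below and Ctrl7 had 1. The genes took 0.593 ± 0.0452% of all counts in KO and 0.665 ± 0.0334% in Ctrl, before scaling between libraries. After TMM scaling, used for CPM, their sum was 5688 ± 626 CPM in KO and 6988 ± 572 CPM in Ctrl. In relative terms the groups differed less before scaling than after it. The TMM factors ran from 0.997 to 1.11 in KO and from 0.910 to 1.01 in Ctrl. No fit without such scaling was run.

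The genes also varied together within groups. Over the deviations of the 14 libraries from their group means, the median Pearson r of the 2850 gene pairs was 0.67, and it was 0.68 for pairs within the large subunit, 0.66 within the small subunit and 0.67 across them. The r of a gene with the mean of the other 75 ran from 0.27 to 0.96 with a median of 0.83. It was above 0.5 for 73 of the 76 genes and highest for Mrpl34, and the exceptions were Mrps2 (0.27), Mrps22 (0.41) and Mrpl10 (0.47). These values describe genes that share the same libraries and their depth. They were not computed over all genes tested, so whether they are particular to the 76 genes was not tested.

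**Figure D4:**
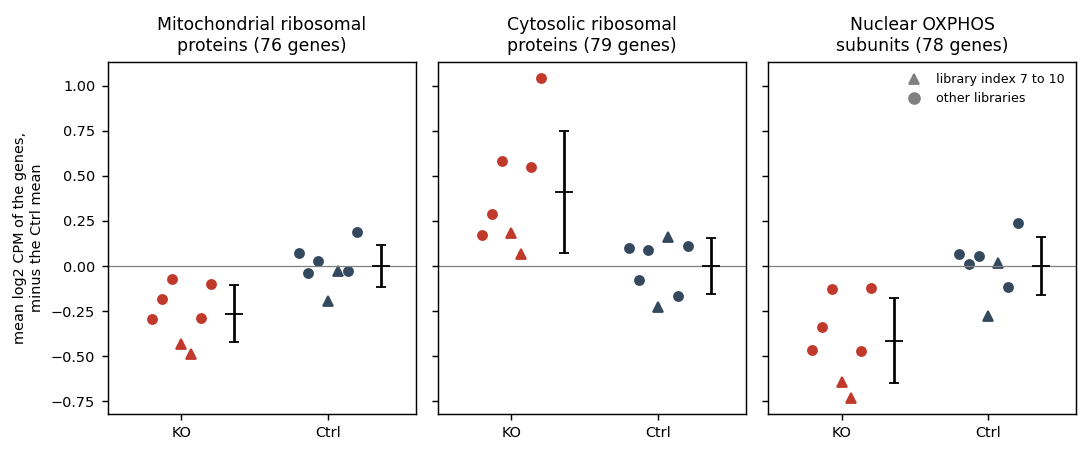
Mean log2 CPM per library minus the Ctrl mean (y axis) for the 76 mitochondrial ribosomal protein genes, 79 cytosolic ribosomal protein genes and 78 nuclear genes of oxidative phosphorylation, KO left and Ctrl right, with mean and SD of 7 libraries; triangles are index 7 to 10. The mitochondrial ribosomal and oxidative phosphorylation panels lie lower in KO and the cytosolic panel higher, with overlap between the groups in all 3.

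The 4 libraries with index 7 to 10 were examined apart from the other 10. Within the other 10 (5 KO, 5 Ctrl) 37 of the 76 genes fell and 0 rose, against 11.6% of all genes tested falling there, and the median was −0.25. Within index 7 to 10 (2 KO, 2 Ctrl) 33 fell and 0 rose, against 6.59% of all genes, all 76 were below 0, and the median was −0.40. The difference between the sets was tested for each gene as the interaction of group and index set (index 7 to 10 minus the other 10). It was called for 0 of the 76 genes and for 0% of all genes tested (edgeR), and at an unadjusted p under 0.05 for 2, Mrpl52 (−0.72, unadjusted p = 0.049) and Mrpl21 (−0.40, unadjusted p = 0.030), against 126 lower and 213 higher of all genes. The median interaction of the 76 genes was −0.10 and 66 of them were below 0, against 0.00 and 49.4% over all genes tested. With 2 KO and 2 Ctrl libraries in index 7 to 10, a lack of calls does not show that the effects are equal. No other tool was run for the interaction. KO4 and KO5 were also the libraries with the highest macrophage marker sums.

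**Figure D5:**
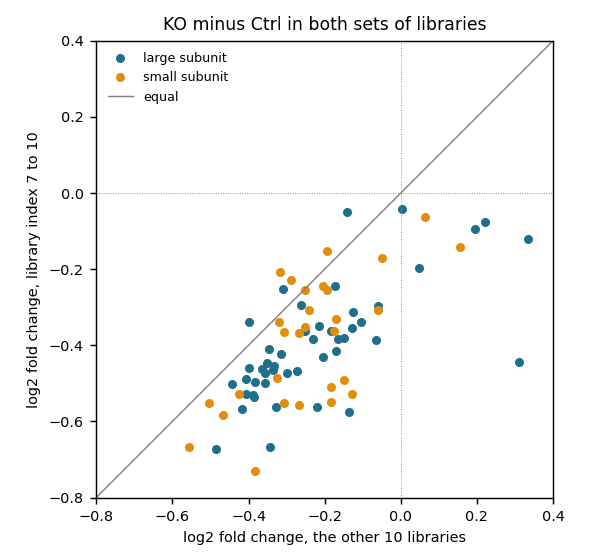
Log2 fold change (KO minus Ctrl) within library index 7 to 10 (y axis, 2 KO and 2 Ctrl) against that within the other 10 libraries (x axis, 5 KO and 5 Ctrl) for the 76 genes, coloured by subunit; the line marks equal values. All 76 points lie below 0 on the y axis and 68 lie below 0 on the x axis, and most lie below the line.

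Calls were counted by length and by level, with no test. In the shortest group by exonic length (407 to 902 bases) 11 of 26 genes fell (median −0.24), in the middle (938 to 1411 bases) 13 of 25 (median −0.25), and in the longest (1419 to 6712 bases) 19 of 25 (median −0.36). Over all genes tested in the same length ranges 20.0%, 18.9% and 13.1% fell. By Ctrl level, 9 of 26 genes fell at 15.5 to 56.5 CPM, 15 of 25 at 57.5 to 87.8 CPM and 19 of 25 at 88.7 to 510.0 CPM. The medians were −0.22, −0.26 and −0.36. Over all genes tested in the same level ranges 10.7%, 21.8% and 33.8% fell. Across the 76 genes, Spearman's rho of the fold change was −0.40 with the Ctrl level and −0.20 with length, and across all 11170 genes −0.31 and 0.03; genes are not independent replicates.

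The genes were spread over 17 chromosomes, and the exons of 9 overlapped another gene, 7 of them on the opposite strand, as for Mrpl19 and Mrps25. The library kit does not mark the strand, so reads of such pairs cannot be told apart. Of the 67 genes without overlap 39 fell, with a median of −0.27. Mrpl46 and Mrps11, of the large and the small subunit, start head to head on chromosome 7, with 41 bases between their starts. The stretch between them (chr7:78783090-78783130, GRCm38.p6, plus strand), shown because it serves as the nearest upstream sequence of both, held none of the 3 motifs.
Mrpl46 and Mrps11: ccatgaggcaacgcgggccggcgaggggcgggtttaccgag
Mrpl46 averaged 62.4 ± 6.06 CPM in KO and 79.7 ± 6.99 CPM in Ctrl and fell by 0.35 on the log2 scale (adjusted p = 0.0015). Mrps11 averaged 27.1 ± 3.25 CPM in KO and 31.2 ± 3.72 CPM in Ctrl and did not pass, at −0.20 (adjusted p = 0.12); every KO library of both genes was below the gene's Ctrl median.

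Proteins of the particle that carry other symbols were read beside the 76. Of 7 tested, 3 fell (42.9%), 0 rose and 4 did not pass, with a median of −0.22. Over all genes tested 13.7% fell and 14.5% rose. Ptcd3, a pentatricopeptide repeat protein of the small subunit, averaged 162 ± 14.8 CPM in KO and 228 ± 19.2 CPM in Ctrl (log2 fold change −0.49, adjusted p = 5e-05). Dap3, a GTP-binding protein of the small subunit, fell by 0.36 (adjusted p = 0.00063), and Ict1, which can release stalled peptides, by 0.34 (adjusted p = 0.0079). Gadd45gip1, Aurkaip1, Chchd1 and Mrp63 stood at −0.22, −0.19, −0.07 and 0.01 and did not pass.

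Mitochondrial translation factors were lower as well, with 9 of 14 falling (64.3%, against 13.7% of all genes tested), 0 rising and a median of −0.31. Tufm, the elongation factor that brings aminoacyl transfer RNA, averaged 143 ± 12.7 CPM in KO and 195 ± 16.0 CPM in Ctrl (log2 fold change −0.45, adjusted p = 8.5e-05). The initiation factor gene Mtif2 fell by 0.43, the elongation factor gene Gfm1 by 0.31 and Taco1, an activator of cytochrome oxidase translation, by 0.46. Mtif3 and Mtfmt, which act at initiation, stood at −0.03 and −0.06 and did not pass.

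Among 24 genes for assembly of the mitochondrial ribosome and modification of its RNA, 7 fell (29.2%), 1 rose (4.17%) and 16 did not pass. The median was −0.23, and over all genes tested 13.7% fell and 14.5% rose. Mettl17, Rbfa, Fastkd2 and Noa1 fell by 0.46, 0.34, 0.32 and 0.24. Mpv17l2, a membrane protein linked to assembly, averaged 20.2 ± 3.38 CPM in KO and 15.9 ± 2.78 CPM in Ctrl and rose by 0.35 (adjusted p = 0.049), but its call was lost when any 1 of 11 of the 14 libraries was left out, all but KO3, KO5 and Ctrl7 (adjusted p of 0.055 to 0.11). Of 16 genes for mitochondrial transcription and RNA handling, 10 fell (62.5%, against 13.7% of all genes tested) and 0 rose. The median was −0.26. Lrpprc, which stabilises mitochondrial messenger RNA, averaged 274 ± 30.5 CPM in KO and 367 ± 27.2 CPM in Ctrl (log2 fold change −0.42, adjusted p = 0.00029). Tfam, which packages mitochondrial DNA and starts its transcription, fell by 0.40 (adjusted p = 0.0046), and Polrmt, the mitochondrial RNA polymerase, stood at 0.00 and did not pass.

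Of 13 known regulators of nuclear genes for mitochondrial proteins, 2 fell, 2 rose and 9 did not pass, shares of 15.4% each way, near the 13.7% and 14.5% over all genes tested. Esrrg and Ppargc1b fell by 0.30 and 0.38 (adjusted p of 0.0077 and 0.037), and the call of Ppargc1b was lost without KO1, KO2, KO4, KO5, KO7, Ctrl1, Ctrl3, Ctrl4 or Ctrl5 (0.050 to 0.084). Pprc1, a coactivator of NRF1, rose by 0.35 (adjusted p = 0.024; 0.052 to 0.054 without KO5, Ctrl1 or Ctrl2), and Myc averaged 23.5 ± 11.9 CPM in KO and 2.997 ± 1.33 CPM in Ctrl (log2 fold change 2.98, adjusted p = 2.4e-06). The messenger RNAs of the factors whose motifs were searched did not pass: Nrf1 at −0.18 (adjusted p = 0.23), Gabpa at −0.08 (adjusted p = 0.44) and Yy1 at 0.33 (adjusted p = 0.067).

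Genes of the cytosolic ribosome were higher in KO. Of 79 tested genes for cytosolic ribosomal proteins 52 rose (65.8%), 1 fell and 26 did not pass, with a median of 0.46. Over all genes tested 14.5% rose and 13.7% fell. The cytosolic gene that fell was Rpl3l, the form of striated muscle, at −1.16 (adjusted p = 3e-06, edgeR). Of 78 tested nuclear genes for subunits of oxidative phosphorylation 61 fell (78.2%), 1 rose (Cox8a, 0.45) and 16 did not pass. Their median was −0.42. By library, the means of the cytosolic ribosomal genes minus the Ctrl mean ran from 0.07 to 1.04 in KO and from −0.23 to 0.16 in Ctrl. Those of oxidative phosphorylation ran from −0.73 to −0.12 in KO and from −0.28 to 0.24 in Ctrl. KO3 and KO7 were nearest to the Ctrl mean among KO libraries in the mitochondrial ribosomal means, at −0.07 and −0.10, and also in those of oxidative phosphorylation, at −0.12 in both, and they held the highest cytosolic ribosomal means, at 0.58 and 1.04. In KO5, which had the lowest mitochondrial ribosomal mean, the cytosolic mean was 0.07. In KO6, KO2, KO4 and KO1 the cytosolic means were 0.55, 0.29, 0.18 and 0.17. The mitochondrial ribosomal means of these libraries were −0.29, −0.18, −0.43 and −0.29, in the same order. A relation between the means was not tested.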

How the data were processed

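Per the labels' protocols, a PureLink kit served for extraction and SMART-Seq v4 with Nextera XT for the libraries. The table the authors deposited gives raw counts of reads for each gene in 14 libraries. STAR, featureCounts, DESeq2, DESeq and build mm10 are named in the submitters' processing notes, without versions. Which annotation and strand setting featureCounts used was not found in the labels or headers. The authors' deposited DESeq2 table, per the file headers, holds a mean signal per gene (counts divided by size factors), a log2 fold change with its standard error, a score (the Wald statistic), and p-values with adjusted p-values; here it served only for the side-by-side count. Every row has a gene name, and 0 columns could not be mapped.

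Groups came from the labels. The deposited counts were tested with edgeR 4.0.16 (R 4.3.3; quasi-likelihood F test, two-sided, filterByExpr, TMM scaling, no covariates), with Benjamini-Hochberg adjustment over 11170 genes and calls at an adjusted p under 0.05. CPM used TMM-scaled library sizes, log2 CPM a prior count of 2. The procedure was tested on simulated data. Levels per length used the exonic length in the table. The members, gene lists and alternatives were chosen with earlier results of these data known, and the lists of cytosolic ribosomal and oxidative phosphorylation genes were formed from symbols after the files had been seen.

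Genes were named by rule: per subunit the 5 largest and the 5 smallest log2 fold changes among called members, the 5 smallest p, the 3 highest and 3 lowest Ctrl levels per length, Mrps18a to Mrps18c, Mrpl12, Mrps30 and Mrps36, and of each list up to 4 tested genes with the smallest p. Other members and list genes named, such as those without group overlap, those above 0, Tfam, Polrmt and the head-to-head pair, were chosen after their values were seen. Alternatives were RLE and upper-quartile scaling, no low-count filter, DESeq2 1.42.0, the replicate block, a term for index 7 to 10, either index set alone, other subunit assignments, and leaving out each library.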

Additional observations from a re-analysis of the deposited data

Results flagged for a closer look

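Among 68 checks of 1 group of 7 libraries for a single library far from the rest (Dixon's test at its 95% critical value), 5 were positive, and chance gives about 1 in 20. Mrpl18 was 203 CPM in KO3, against 167 CPM in the next KO library. Ctrl7 was far above the next Ctrl library for 3 genes: Mrps35 at 194 CPM against 164 CPM, Mrpl17 at 70.3 CPM against 61.0 CPM, and Mrpl19 at 69.6 CPM against 54.4 CPM. Ctrl7 was also the Ctrl library with the highest mean over all 76 genes. The large-minus-small difference was 0.365 on the log2 scale in KO5, against 0.381 in the next KO library.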

How the results depend on the processing

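The count of members that fell was 43 and stayed between 37 and 51 when any 1 library was left out; it was 43 with RLE scaling, 50 with upper-quartile scaling, 38 with no low-count filter, 47 with DESeq2, 37 in the other 10 libraries and 33 in index 7 to 10. A term for index 7 to 10 gave 56, and 0 members rose under any of these. Of the 43, 37 were called with every single library left out, and Mrpl38, Mrps34, Mrpl14, Mrps2, Mrps18c and Mrps33 were not. Same-numbered samples had correlations of deviations of 0.06 to 0.53 over 7 pairs, 6 of them above 0.1. Of 14 libraries, 3 correlated best with their own number. No label says that the numbers pair samples, and the main fit did not take them as pairs. The fit with the replicate block called 56 members, 42 of them among the 43. It did not call Mrps2 (−0.17, adjusted p = 0.056, edgeR), and called 1848 genes lower and 1922 higher in all. Index 7 to 10 alone gave 11 of the small-subunit genes (17 in all libraries), 17 of the named genes (28), 18 of the genes lower in the 5 mitochondrial lists (31), a median of −0.40 (−0.27) and a large-minus-small difference of medians of −0.061 (−0.02); that fit holds 4 libraries in place of 14, and the cause was not tested further. That difference was −0.049 with subunits by structure, and between −0.047 (without KO1) and −0.0046 (without Ctrl5) when any 1 library was left out. The median of all genes tested moved by under 0.1 in every scaling. With the 7 proteins of other symbols 46 genes fell, and without Mrps36 42. Depth limits the lowest members most; Mrpl23, the lowest, averaged 15.5 CPM in Ctrl.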

Other observations

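Many members start close to a gene on the other strand. For 26 of the 76, the start of a neighbour that points the other way lies within 1000 bases, and 20 such neighbours that are no members themselves were tested. Of these 5 fell, 2 rose and 13 did not pass, with a median log2 fold change of −0.10, while 13.7% of all genes tested fell and 14.5% rose. Of the 20, 13 stand beside a member that fell, so several of any 5 would stand there, and no test was run. The 5 that fell were Ndufb5, a subunit of respiratory complex I, beside Mrpl47 (−0.48), Ptcd2 beside Mrps27 (−0.48), Tmem63b beside Mrpl14 (−0.42), the proteasome gene Psma2 beside Mrpl32 (−0.31) and 2610507I01Rik beside Mrpl55 (−0.25). Mtbp, beside Mrpl13, averaged 4.15 CPM in KO and 2.23 CPM in Ctrl (0.89, adjusted p = 0.015, edgeR), and Pnpla7, beside Mrpl41, rose by 0.29 (adjusted p = 0.045). The neighbours were chosen by position, and the strand of reads where their exons overlap a member was not recorded.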
